A study of Rattus norvegicus with 9 samples.

Results

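The subject is a set of developmental transcription factors in the rat excretory system at E13, embryonic day 13: the forkhead, Sox, T-box and GATA factors, the Id proteins, the TCF/LEF factors, and the Twist, Hand, Ascl, Neurod and E-protein members of the basic helix-loop-helix (bHLH) class. Members were chosen by gene symbol alone, from array features (probe sets) with 1 symbol in the platform annotation. Sox7, Sox17, Gata2, Gata3, Tbx18 and Tcf21 were left out by the rule. The set holds 75 genes on 132 probe sets, of 14217 genes and 31099 features on the array. It divides into 30 forkhead, 12 Sox, 5 T-box, 4 GATA, 4 Id, 4 TCF/LEF and 13 bHLH genes, with 3 further Tcf symbols, Tcf19, Tcf20 and Tcf25, that share only the letters of the name. No feature with a single symbol was found for Sox9 or Foxd1.

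The study measured total RNA from Sprague-Dawley embryos on 9 single-colour arrays, 3 for each of 3 dissected tissues. UB is the ureteric bud, the epithelial outgrowth that forms the collecting system, freed from the embryonic kidney after light trypsin treatment, about 100 pieces to a pool. WD is the Wolffian duct, from which the bud grows, isolated without enzyme, also about 100 pieces, and WD+IM is the duct with mesodermal cells still attached, about 50 pieces. No genotype, drug or culture step separates the groups, but only UB met the enzyme, and for UB the effects of digestion and of tissue cannot be told apart. Replicates are described as biological, 3 pools to a tissue. Each p-value rests on the spread of pools within tissues, shared over all 9 arrays and moderated over the probe sets tested.

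Forkhead, Sox and T-box proteins are DNA-binding factors grouped by their DNA-binding domains, GATA factors are named for the sequence they bind, and many of them set cell identity in mesoderm and its derivatives. The bHLH factors bind E-boxes as dimers, usually a tissue-restricted partner such as Twist or Hand with a broadly present E protein, encoded by Tcf3, Tcf4 or Tcf12. Id proteins keep the dimerisation domain without the DNA-binding part and so hold E proteins off DNA, while LEF1 and the TCF7 group carry the nuclear output of canonical Wnt signalling, which acts in the duct, the bud and the mesenchyme around them.

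All values are array intensities on a linear scale, which the deposited table gives at a common trimmed mean, and they compare 1 gene between tissues, not genes with each other. Summed over 10 mesenchyme markers such as Col1a1 and Pdgfra, the signal was 8209 to 10721 units on UB arrays, 94952 to 129015 on WD arrays and 211830 to 254097 on WD+IM arrays. The sum over 12 duct epithelium markers was 211645 to 217695 on UB, 216318 to 240951 on WD and 66971 to 99253 on WD+IM arrays. WD samples therefore carried mesenchymal RNA as well as duct RNA, and in pooled tissue fewer cells of a type and less RNA per cell cannot be told apart. Among the hybridisation spikes, bioC stood at 2.87 to 2.99 times bioB in the UB hybridisations and at 2.93 times in WD+IM replicate 3. In the other 5 hybridisations it stood at 1.02 to 1.23 times. These 4 arrays also had the lower median signals, 534 to 644 units against 744 to 897. A fit with a term for the 4 arrays is called the spike term below. It draws the UB to WD difference through WD+IM, comparing UB with WD+IM replicate 3 and WD with WD+IM replicates 1 and 2.

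Of the 75 genes, 47 passed the filter on low signal and were tested, each at its probe set with the highest mean. Differences are on the scale log2(intensity + 46), which understates the change of weak genes, and a gene was called at an adjusted p under 0.05. Between UB and WD, 5 members were called higher and 19 lower, 10.6% and 40.4% of those tested. The background over 10800 genes was 13.4% higher and 19.6% lower. The groups did not overlap for 35 members, 74.5%, against 51.8% of all genes. The median difference of the 47 was -0.46, against -0.08 over all genes. In WD+IM against WD, 9 members were higher and 4 lower, with backgrounds of 6.47% and 8.24%, and 22 members (46.8%) did not overlap, against 32.4% of genes. Their median was -0.05, against -0.01. Between UB and WD+IM, 4 members were higher and 22 lower, with backgrounds of 13.6% and 16.6%. Here 29 members (61.7%) did not overlap, against 49.9% of genes, and the median was -0.48, against -0.01.

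The factors called lower in UB were spread over the bHLH, Id, TCF/LEF, GATA, Sox and forkhead families. The comparisons share arrays in pairs, so their counts are not independent of each other. Scaling moves the split. With every array centred on its median, 10 members were higher and 6 lower in UB against WD, 9 and 1 in WD+IM against WD, and 5 and 11 in UB against WD+IM. Over all probe sets, the same centring called 28.7% higher and 7.53% lower, 6.12% and 4.53%, and 22.7% and 8.81%. It moved the median of all probe sets in UB against WD from -0.12 to 0.34, and quantile normalization moved it to 0.04. The spike term left 2 of the 24 calls in UB against WD, those of Hand2 and Twist1. It left 9 of 13 in WD+IM against WD and 14 of 26 in UB against WD+IM. Beta-actin probe sets at the 3' end read 2.19 to 4.87 times those at the 5' end on WD arrays and 1.47 to 2.30 times on the others. With that ratio as a covariate, 13 of 24, 2 of 13 and 25 of 26 calls were left in the 3 comparisons, the 2 being those of Twist1 and Tcf19. The calls lost were, in UB against WD, those of Foxj1, Foxj2, Foxm1, Foxn3, Foxo1, Foxo3, Id3, Tcf12, Tcf25, Tcf7l1 and Tcf7l2 (adjusted p = 0.0571 to 0.383) and, against WD+IM, that of Foxo3 (adjusted p = 0.0539). Averaging all probe sets of a gene left 16, 12 and 21. It ended the UB against WD calls of Foxj2, Foxk2, Foxn3, Foxo1, Foxo3, Sox6, Tcf12 and Tcf25 (adjusted p = 0.0533 to 0.998), the WD+IM against WD call of Tcf4 (adjusted p = 0.147), and the UB against WD+IM calls of Foxn3, Foxo3, Sox6, Tcf12 and Tcf7l2 (adjusted p = 0.102 to 0.767).

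**Figure D1:**
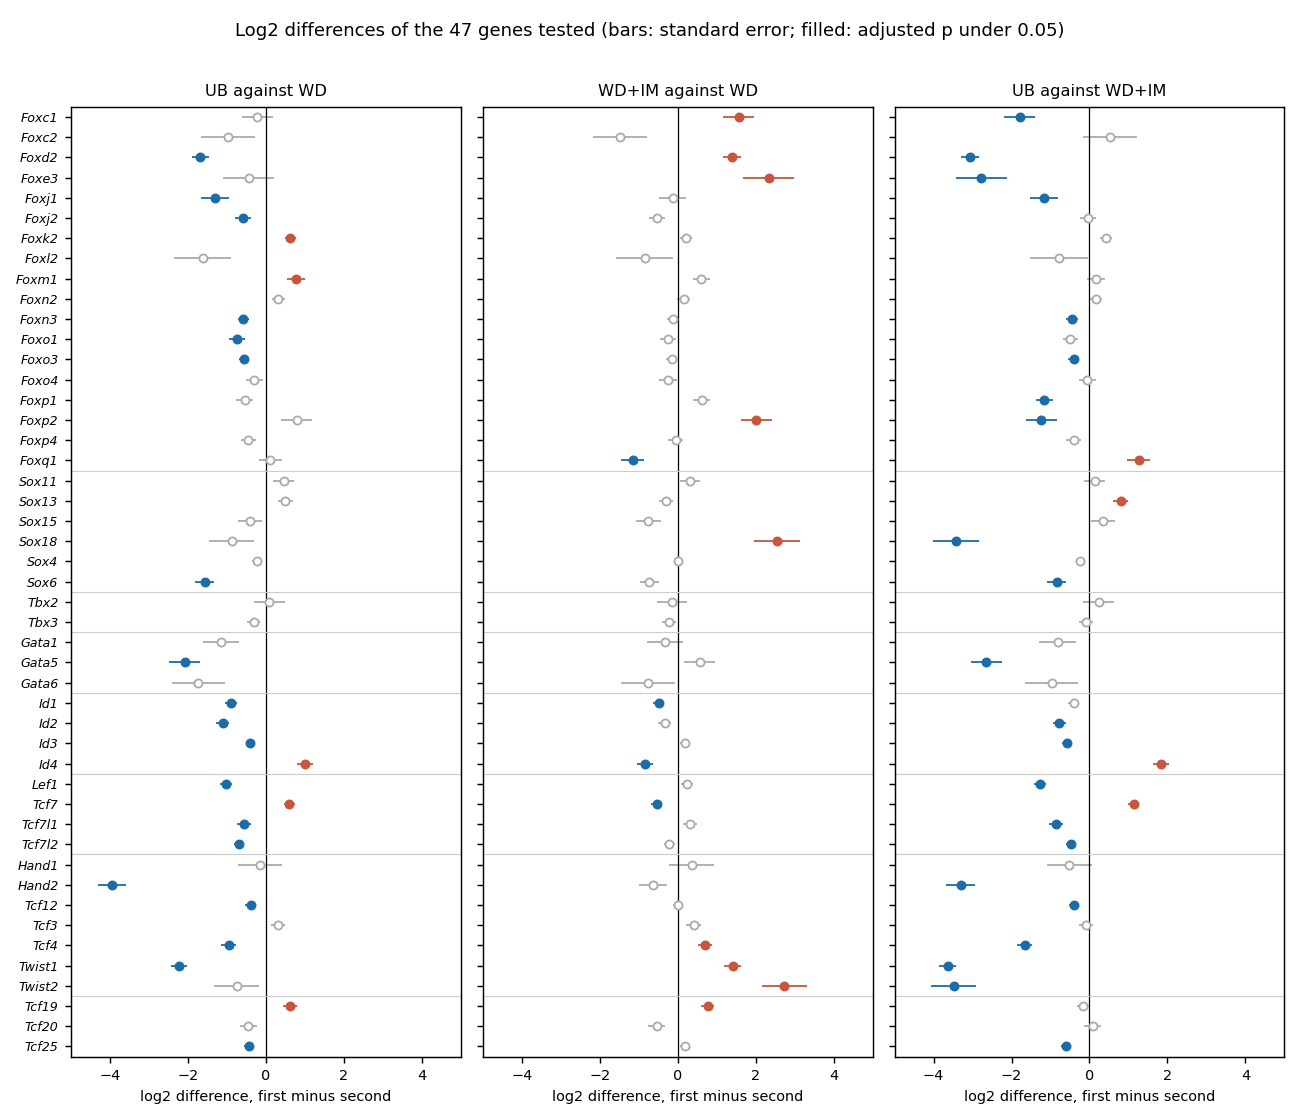
Log2 differences (horizontal axis, first group minus second) of the 47 tested genes (vertical axis, ordered by family with forkhead genes first) in the 3 comparisons, with standard errors from 3 arrays per group; filled points had an adjusted p under 0.05. For UB against WD, 19 filled points lie below 0 and 5 above, and in UB against WD+IM 22 lie below and 4 above.

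In each comparison the largest difference among the 47 tested genes was that of a bHLH factor that pairs with E proteins, Hand2, Twist2 or Twist1. Twist2, the largest in WD+IM against WD, could pass the filter through its WD+IM arrays alone, so its place there is not independent of the filter. Hand2, a factor of heart, limb and branchial arch mesenchyme, and Twist1, a factor of mesenchymal cells and of epithelial-mesenchymal transition, were both lower in UB than in either duct sample. Their promoters are shown because the other bHLH factors and the E proteins bind E-boxes. The sequences are RefSeq's for GRCr8, the 250 bases before the annotated start on the gene's strand, with E-boxes of the form CANNTG in capitals. Hand2 lies at chr16:37931489-37931738, minus strand, and Twist1 at chr6:56402059-56402308, plus strand.
Hand2: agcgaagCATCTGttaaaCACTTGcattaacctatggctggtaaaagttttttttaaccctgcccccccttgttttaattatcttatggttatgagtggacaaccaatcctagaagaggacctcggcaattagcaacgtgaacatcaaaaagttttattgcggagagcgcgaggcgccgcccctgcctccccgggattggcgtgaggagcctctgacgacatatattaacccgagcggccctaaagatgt
Twist1: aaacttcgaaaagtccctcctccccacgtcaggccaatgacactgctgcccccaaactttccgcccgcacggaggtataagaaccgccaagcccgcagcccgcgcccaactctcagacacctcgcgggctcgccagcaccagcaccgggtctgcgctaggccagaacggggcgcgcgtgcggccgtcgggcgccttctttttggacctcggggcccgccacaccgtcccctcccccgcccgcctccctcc
The Hand2 stretch holds 2 E-boxes near its distal end and the Twist1 stretch none. Twist1's is 69.2% G and C with 27 CpG dinucleotides, Hand2's 48% with 13. A match describes the letters and says nothing of binding.

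Hand2 read 91, 355 and 130 units on the UB arrays, 2874, 3078 and 3845 on the WD arrays and 1491, 2480 and 2358 on the WD+IM arrays. The highest UB array was below the lowest array of either other group, and WD lay above WD+IM with no overlap. The difference was -3.95 ± 0.36 (SE, n = 3 arrays per group) in UB against WD, a 15.4-fold lower signal (limma, adjusted p = 1.2e-05). It was -3.31 ± 0.36 in UB against WD+IM (adjusted p = 2.57e-05), and -0.64 ± 0.36 in WD+IM against WD, which was not called (adjusted p = 0.28). Hand2's other probe set was lower in UB by the same calls, with differences of -2.75 and -2.85. There WD and WD+IM overlapped and differed by 0.10 (adjusted p = 0.91). With the spike term the UB against WD difference at the probe set read for Hand2 was -4.24 (adjusted p = 0.00543). Hand1, the related factor, read 97.4 to 592 units over the 9 arrays and was called in none of the comparisons.

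Twist1 rose in steps across the 3 tissues. It read 684, 609 and 504 units in UB, 3520, 2125 and 3454 in WD, and 7480, 8507 and 7867 in WD+IM. No array of 1 tissue overlapped another tissue. The difference was -2.23 ± 0.21 in UB against WD (adjusted p = 1.58e-05), 1.41 ± 0.21 in WD+IM against WD (adjusted p = 0.00101) and -3.64 ± 0.21 in UB against WD+IM (adjusted p = 1.19e-07). All 3 calls remained under every alternative run, with adjusted p up to 0.0189, and Twist1's other probe set made the same 3 calls. The mesenchyme marker sums given above took the order of Twist1 over the tissues. Hand2 was highest in WD at the probe set read for it, without a call between WD and WD+IM, and not at its other one. The part of mesenchymal cells in the Twist1, Twist2 and Hand2 differences was not tested.

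Twist2, a close relative of Twist1 known from dermal and limb mesenchyme, stood out in WD+IM. Its 3 WD+IM arrays read 687, 1110 and 872 units, while WD read 97.4, 40.9 and 169 and UB 80.5, 26 and 15.5. Twist2 could pass the filter through its WD+IM arrays alone. It was higher in WD+IM than in WD by 2.73 ± 0.58 (adjusted p = 0.00851) and lower in UB than in WD+IM by -3.48 ± 0.58 (adjusted p = 7.04e-04). UB against WD differed by -0.75 ± 0.58 and was not called (adjusted p = 0.34). The call against WD was lost without WD+IM replicate 2 (adjusted p = 0.0521).

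**Figure D2:**
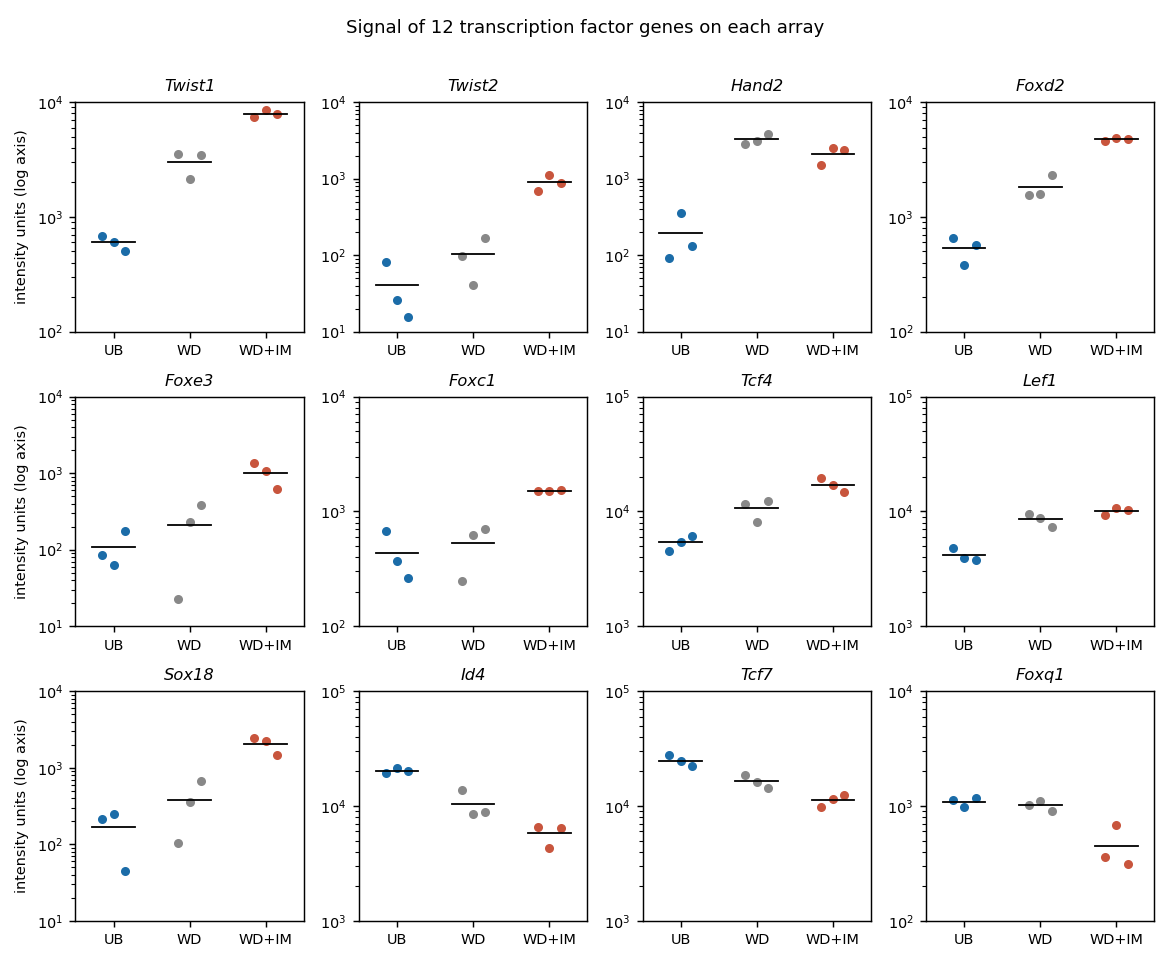
Signal in intensity units (vertical log axis) of 12 member genes on each array of UB, WD and WD+IM (horizontal axis); points are arrays and bars the means of 3. Twist1, Foxd2 and Tcf4 rise from UB to WD to WD+IM with no overlap, Id4 and Tcf7 fall in the same order, and Hand2 is highest in WD.

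E-protein genes showed smaller shifts. Tcf4 read 4556, 5456 and 6125 units in UB, 11538, 8078 and 12239 in WD and 19456, 17130 and 14889 in WD+IM. The 3 tissues did not overlap and followed the order of Twist1. Tcf4's other probe set was also called lower in UB than in either duct sample. There WD and WD+IM overlapped and differed by 0.22 (adjusted p = 0.70). Tcf4 differed by -0.96 ± 0.18 in UB against WD (adjusted p = 0.00226, and 0.305 with the spike term), by 0.70 ± 0.18 in WD+IM against WD (adjusted p = 0.0235) and by -1.67 ± 0.18 in UB against WD+IM (adjusted p = 2.32e-05, and 0.00262 with the spike term). The WD+IM against WD call was lost without WD replicate 2 or WD+IM replicate 1 or 2 (adjusted p = 0.0652 to 0.0794), and with the beta-actin covariate. Median centring also ended the call in UB against WD (adjusted p = 0.0603).

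Tcf12 was lower in UB by -0.40 ± 0.13 against WD (adjusted p = 0.0404, and 0.0785 with the spike term) and by -0.40 ± 0.13 against WD+IM (adjusted p = 0.0422). UB read 14614, 15210 and 14609 units, below the range of 16936 to 23059 on the other 6 arrays. Median centring turned its direction against WD, to 0.07, and ended the call against WD+IM (adjusted p = 0.912). Each Tcf12 call was lost without any 1 of 6 arrays, with adjusted p from 0.0515 to 0.119 and from 0.0517 to 0.134. Those arrays were the 3 UB arrays, WD replicate 1 and WD+IM replicate 2 for both calls, with WD replicate 2 for the first and WD+IM replicate 3 for the second. Tcf12's other probe set was called in none of the comparisons. It read higher in UB than in WD, by 0.40 (adjusted p = 0.636), and lower in UB than in WD+IM, by -0.82 (adjusted p = 0.352). Tcf3 read 2375 to 4652 units and was not called. Among the remaining bHLH genes, Ascl2, Ascl3, Neurod1, Neurod2, Neurod6 and Tcf23 did not pass the filter, Neurod1, a neuronal and endocrine factor, reading 10.8 to 293 units.

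The 4 Id genes did not move together. Id1, Id2 and Id3 were lower in UB than in WD, and Id4 was higher. The promoters of Id1 and Id4 are set beside each other because these genes differed in opposite directions. Id1 lies at chr3:161671314-161671563, plus strand, and Id4 at chr17:16598294-16598543, minus strand, both 250 bases of GRCr8 from RefSeq with E-boxes in capitals.
Id1: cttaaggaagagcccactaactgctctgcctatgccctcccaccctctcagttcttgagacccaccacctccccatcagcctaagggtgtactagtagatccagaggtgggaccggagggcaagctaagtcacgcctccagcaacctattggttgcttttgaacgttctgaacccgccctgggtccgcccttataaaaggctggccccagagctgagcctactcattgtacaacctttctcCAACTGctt
Id4: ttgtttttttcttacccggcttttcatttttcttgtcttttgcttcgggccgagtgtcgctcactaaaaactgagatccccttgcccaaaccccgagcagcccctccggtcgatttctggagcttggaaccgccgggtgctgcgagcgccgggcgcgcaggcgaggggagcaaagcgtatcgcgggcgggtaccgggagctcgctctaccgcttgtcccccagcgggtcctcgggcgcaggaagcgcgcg
The Id1 stretch has 1 E-box, close to the start, and 5 CpG dinucleotides. The Id4 stretch has no E-box and 28 CpG dinucleotides. Those of Id2 and Id3, lower in UB than in WD like Id1, have 1 and 0 E-boxes and 19 CpG dinucleotides each. The letters say nothing of why the genes differed.

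Id1, a direct target of BMP signalling in many cells, read 14645, 13537 and 18942 units in UB, 27506, 28293 and 31383 in WD and 18266, 22874 and 20923 in WD+IM. WD was above every other array. Id1 was lower in UB than in WD by -0.90 ± 0.15 (adjusted p = 8.77e-04, and 0.0919 with the spike term), and lower in WD+IM than in WD by -0.49 ± 0.15 (adjusted p = 0.0448, and 0.0889 with the spike term). The second call was lost without any array other than UB replicate 2 or 3, with adjusted p up to 0.12. UB against WD+IM differed by -0.41 ± 0.15, which was not called (adjusted p = 0.061), and UB replicate 3 lay above WD+IM replicate 1. Median centring ended both calls (adjusted p = 0.11 and 0.262).

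Id2 read 14829, 15208 and 16800 units in UB, 32505, 35802 and 32932 in WD, and 30377, 31726 and 19585 in WD+IM. Within WD+IM, replicate 3, the array with the high spike ratio, lay near UB. Id2 was lower in UB by -1.11 ± 0.17 against WD (adjusted p = 5.19e-04) and by -0.77 ± 0.17 against WD+IM (adjusted p = 0.00461), and with the spike term the adjusted p was 0.262 and 0.241. Median centring ended the second call (adjusted p = 0.118), and averaging both probe sets left the first at -0.68. Its other probe set put WD+IM replicate 3 with its group: it read 12201, 13006 and 12981 units in WD+IM, against 7202 to 8708 in WD and 6122 to 7332 in UB. That probe set was called higher in WD+IM than in WD by 0.65 ± 0.13 (adjusted p = 0.00583), where the probe set with the highest mean differed by -0.34 ± 0.17 (adjusted p = 0.21), and it was lower in UB against WD+IM by -0.90 (adjusted p = 2.47e-04). Between UB and WD it differed by -0.24 (adjusted p = 0.174).

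Id3 was lower in UB than in either duct sample. UB read 36297, 35611 and 41365 units, WD 46740, 54034 and 48802, and WD+IM 49572, 60440 and 59187. Every UB array was below the other 6. The difference was -0.40 ± 0.12 against WD (adjusted p = 0.0271, and 0.246 with the spike term) and -0.58 ± 0.12 against WD+IM (adjusted p = 0.00385, and 0.0316 with the spike term). The call against WD was lost without UB replicate 1 or 2 or WD replicate 2 (adjusted p = 0.0783 to 0.103), and its direction turned under median centring, to 0.06. The call against WD+IM was lost there too (adjusted p = 0.449).

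Id4, known mainly from neural development, was high in the bud. It read 19518, 21558 and 20079 units in UB, 13905, 8562 and 8822 in WD and 6624, 4290 and 6414 in WD+IM. The 3 tissues did not overlap. Id4 differed by 0.999 ± 0.21 in UB against WD (adjusted p = 0.00395, and 0.334 with the spike term), by -0.84 ± 0.21 in WD+IM against WD (adjusted p = 0.0191) and by 1.84 ± 0.21 in UB against WD+IM (adjusted p = 3.12e-05, and 0.00325 with the spike term). All 4 Id4 probe sets were called higher in UB than in WD+IM, by 1.84 to 2.55, and 3 of 4 were called higher in UB than in WD. The WD+IM against WD call was lost without WD replicate 1 or WD+IM replicate 2 (adjusted p = 0.0661 to 0.0724) and under median centring (adjusted p = 0.0621), and 2 of the 4 probe sets made it. Duct epithelium markers summed lowest in WD+IM as well, and their part in the differences of Id4, Tcf7 and Foxq1 was not tested.

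**Figure D3:**
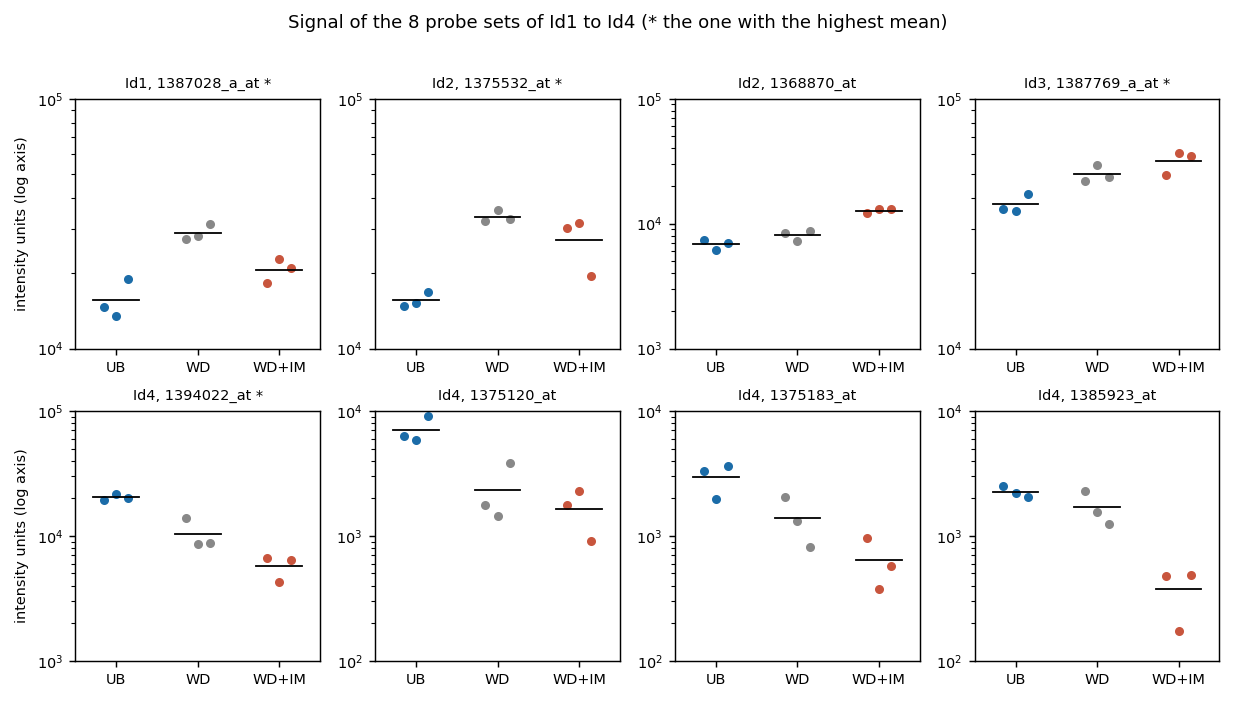
Signal in intensity units (vertical log axis) of the 8 probe sets of Id1 to Id4 on each array of UB, WD and WD+IM (horizontal axis); points are arrays, bars the means of 3, and an asterisk marks the probe set read for the gene. The 3 UB points of Id4's marked probe set, 19518 to 21558 units, lie above its other 6, and those of Id1, Id2 and Id3 lie below their WD points.

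Among the 4 TCF/LEF genes, Lef1, Tcf7l1 and Tcf7l2 were lower in UB than in WD and than in WD+IM, and Tcf7 was higher. Lef1, an activator at Wnt target genes, read 4802, 3908 and 3800 units in UB, 9508, 8796 and 7266 in WD and 9248, 10682 and 10234 in WD+IM. UB lay below both duct samples, which overlapped. It differed by -1.02 ± 0.15 in UB against WD (adjusted p = 4.38e-04, and 0.0646 with the spike term) and by -1.27 ± 0.15 in UB against WD+IM (adjusted p = 5e-05, and 0.00242 with the spike term). Median centring left the first at an adjusted p of 0.0677. Lef1's other probe set was called higher in WD+IM than in WD by 0.70 (adjusted p = 0.0244), where the one read for the gene differed by 0.24 (adjusted p = 0.32).

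Tcf7 ran the other way from Lef1. It read 27634, 24694 and 22211 units in UB, 18603, 16293 and 14377 in WD and 9826, 11594 and 12409 in WD+IM, with no overlap between tissues. It differed by 0.60 ± 0.14 in UB against WD (adjusted p = 0.0089, and 0.468 with the spike term), by -0.54 ± 0.14 in WD+IM against WD (adjusted p = 0.0276) and by 1.14 ± 0.14 in UB against WD+IM (adjusted p = 7.99e-05, and 0.00686 with the spike term). Leaving out UB replicate 1 ended the first call (adjusted p = 0.051), and leaving out WD replicate 1 or 2 or WD+IM replicate 1 or 2 ended the second (adjusted p = 0.0588 to 0.0986). Median centring also ended the second (adjusted p = 0.26).

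Tcf7l1, mostly a repressor of Wnt targets in the absence of signal, read 2425, 2402 and 1737 units in UB, 3742, 2779 and 3214 in WD and 4109, 4083 and 3780 in WD+IM. The tissues did not overlap and took the order of Twist1, with WD+IM above WD by 0.30 ± 0.18, which was not called (adjusted p = 0.30). It was lower in UB by -0.56 ± 0.18 against WD (adjusted p = 0.0334, and 0.52 with the spike term) and by -0.87 ± 0.18 against WD+IM (adjusted p = 0.00341, and 0.0804 with the spike term). The first call was lost without UB replicate 1 or 3 or WD replicate 1 or 3 (adjusted p = 0.0547 to 0.139), quantile normalization ended it (adjusted p = 0.0813), and median centring ended both (adjusted p = 0.755 and 0.11). Tcf7l2 was lower in UB by -0.69 ± 0.13 against WD (adjusted p = 0.00269, and 0.148 with the spike term) and by -0.48 ± 0.13 against WD+IM (adjusted p = 0.0194, and 0.14 with the spike term). It read 5761 to 7588 units in UB, 10071 to 11312 in WD and 8844 to 9294 in WD+IM. The second call was lost without UB replicate 1 or 3 (adjusted p = 0.0771 to 0.0911), and median centring ended both (adjusted p = 0.41 and 0.706). Of the 5 tested Tcf7l2 probe sets, 3 were called lower in UB than in WD. Against WD+IM only the 1 read for the gene was called.

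Wnt response genes were measured beside these factors. Of 7 tested, 1 was higher and 4 lower in UB than in WD (all genes: 13.4% and 19.6%). Apcdd1, a membrane inhibitor of Wnt signalling, was lower by -2.23 ± 0.23 (adjusted p = 3.31e-05), the feedback inhibitor Nkd1 by -1.27 ± 0.26 (adjusted p = 0.00389), and Lgr5, a receptor for R-spondins, by -0.88 ± 0.24 (adjusted p = 0.0155). The cell cycle gene Ccnd1 was higher by 1.27 ± 0.20 (adjusted p = 6.53e-04). In WD+IM against WD none was higher and 3 were lower (all genes: 6.47% and 8.24%). Among the 3 were Lgr5, by -1.17 ± 0.24 (adjusted p = 0.00612), and Axin2, the usual reporter of the pathway, by -0.71 ± 0.21 (adjusted p = 0.0446). Between UB and WD+IM 2 were higher and 2 lower (all genes: 13.6% and 16.6%). The median of the 7 was -0.63, -0.13 and 0.29 in the 3 comparisons.

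Of 9 BMP response genes other than Id1 to Id4, none was called higher and 7 were called lower in UB against WD, with a median of -1.42. Over all genes 13.4% were called higher and 19.6% lower. Grem1, a secreted BMP antagonist, was lower by -2.51 ± 0.34 (adjusted p = 2.42e-04), and the homeobox gene Msx2 by -1.87 ± 0.27 (adjusted p = 3.76e-04). The bHLH factor Atoh8 was lower by -1.43 ± 0.25 (adjusted p = 0.00162), and Msx1 by -1.74 ± 0.33 (adjusted p = 0.00253). Against WD+IM, UB again had 7 lower and none higher (all genes: 16.6% and 13.6%), with a median of -1.48. In WD+IM against WD only Smad7, an inhibitory Smad, was called, at -0.71 ± 0.21 (adjusted p = 0.0472), where 6.47% of all genes were higher and 8.24% lower. Mesenchyme markers were lower in UB as well, as given above, and their part in these counts was not tested.

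Co-repressors and cofactors of these factors were measured as well. Of 14 tested, the Groucho-type co-repressors Tle1 and Tle2 were lower in UB than in WD, by -0.80 ± 0.14 (adjusted p = 0.00132) and -0.80 ± 0.20 (adjusted p = 0.0102), and none was higher. Over all genes 19.6% were lower and 13.4% higher. Tle1 was also higher in WD+IM than in WD, by 0.47 ± 0.14 (adjusted p = 0.0436). Zfpm2, a cofactor of GATA4, was the other one higher there, by 2.59 ± 0.51 (adjusted p = 0.00515), and none was lower (all genes: 6.47% and 8.24%). Between UB and WD+IM, Tle1 (-1.27 ± 0.14, adjusted p = 2.36e-05) and Zfpm2 (-2.29 ± 0.51, adjusted p = 0.00511) were lower and Tle5 was higher by 0.53 ± 0.17 (adjusted p = 0.0399). Of all genes, 16.6% were lower and 13.6% higher in that comparison.

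Of the 4 GATA genes, 3 were tested. Gata5, known from heart, gut and genitourinary mesoderm, was the only one of them called at the probe set with the highest mean. It read 62.6, 128 and 60.7 units in UB, 440, 649 and 409 in WD and 837, 776 and 631 in WD+IM. UB lay below all other arrays. The difference was -2.08 ± 0.39 in UB against WD (adjusted p = 0.00231) and -2.64 ± 0.39 in UB against WD+IM (adjusted p = 2.98e-04). With the spike term the values were -1.75 (adjusted p = 0.218) and -2.42 (adjusted p = 0.0146).

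Gata6, an endoderm and heart factor, read 78.7, 416 and 681 units in UB, 951, 866 and 1648 in WD and 919, 1299 and 197 in WD+IM, and was not called (UB against WD -1.73 ± 0.69, adjusted p = 0.075). WD+IM replicate 3, with the high spike ratio, fell in the UB range. Gata6's other probe set read 3110, 1459 and 663 units in WD+IM, against 270 to 309 in WD and 40.8 to 282 in UB. It was called higher in WD+IM than in WD by 2.14 ± 0.59 (adjusted p = 0.032) and lower in UB than in WD+IM by -2.91 ± 0.59 (adjusted p = 0.00283). That probe set could pass the filter through its WD+IM arrays alone, the group in which it is high. Gata4 was below the filter at its brightest probe set, with 1836, 292 and 379 units in WD+IM and 70.1 to 443 on the other arrays, and its other probe set was called in none of the comparisons.

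Gata1, the erythroid and megakaryocytic factor, read 241, 183 and 204 units in UB, 646, 328 and 649 in WD and 548, 601 and 188 in WD+IM. WD+IM replicate 3 again fell with UB. It differed by -1.15 ± 0.46 in UB against WD and was not called (adjusted p = 0.08). Summed over 7 red cell markers, UB arrays read 3542 to 8689 units, WD arrays 79423 to 133064 and WD+IM arrays 76482 to 121502, WD+IM replicate 3 included.

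**Figure D4:**
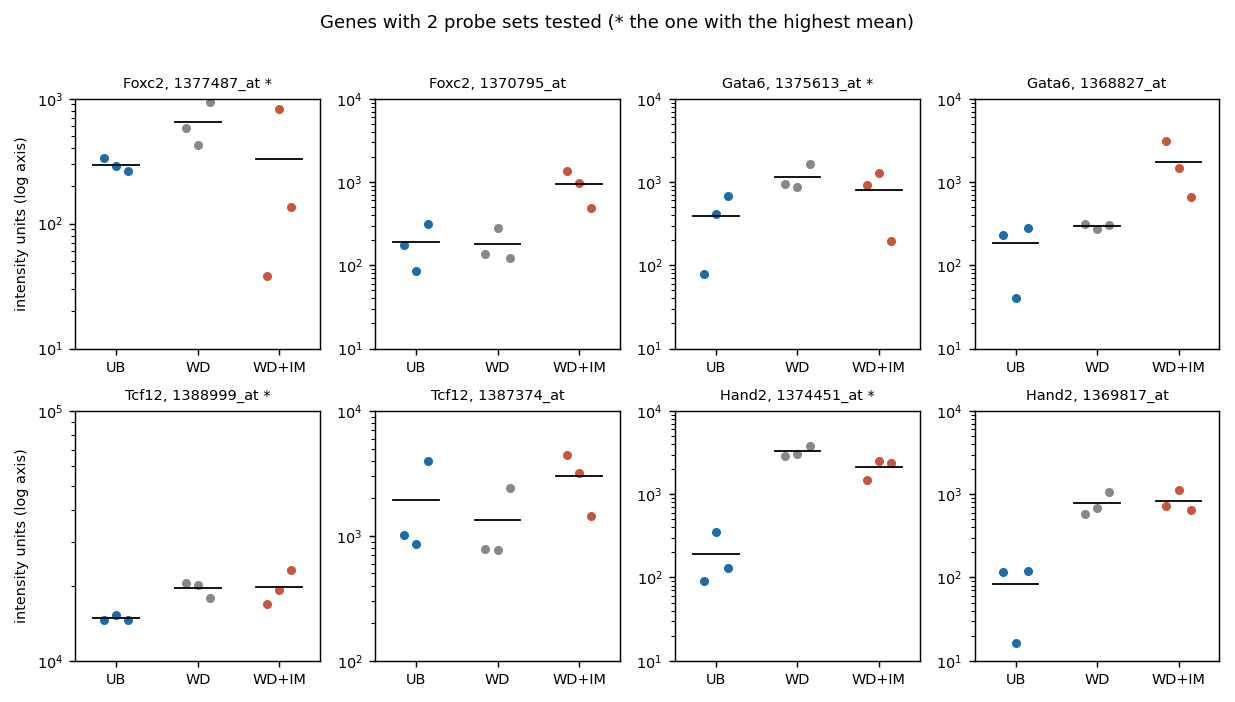
Signal in intensity units (vertical log axis) on each array of UB, WD and WD+IM (horizontal axis) for the 2 tested probe sets each of Foxc2, Gata6, Tcf12 and Hand2; points are arrays, bars the means of 3, and an asterisk marks the probe set read for the gene. Both Hand2 probe sets are low in UB, while for Foxc2 and Gata6 the unmarked one of those plotted has WD+IM above WD without overlap and the marked one overlaps.

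Sox genes showed 3 different patterns and a group without calls. Sox18, a factor of endothelial cells, read 216, 247 and 44.6 units in UB, 104, 352 and 680 in WD and 2447, 2218 and 1490 in WD+IM. WD+IM lay above all other arrays, and Sox18 could pass the filter through its WD+IM arrays alone. It was higher in WD+IM than in WD by 2.55 ± 0.58 (adjusted p = 0.013, and 0.0254 with the spike term) and lower in UB than in WD+IM by -3.43 ± 0.58 (adjusted p = 8.45e-04, and 0.0404 with the spike term). The beta-actin covariate ended the first call (adjusted p = 0.299). Summed over 11 endothelial markers, WD+IM arrays read 46435 to 48114 units, WD arrays 5874 to 7364 and UB arrays 4337 to 5779, and the part of these cells in the Sox18 difference was not tested.

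Sox6, known from cartilage, muscle and erythroid cells, was highest in WD, at 2573, 2788 and 2054 units, against 1382, 1769 and 1279 in WD+IM and 689, 1097 and 662 in UB. The 3 tissues did not overlap. It differed by -1.57 ± 0.24 in UB against WD (adjusted p = 5.9e-04, and 0.146 with the spike term) and by -0.84 ± 0.24 in UB against WD+IM (adjusted p = 0.0221, and 0.302 with the spike term). The second was also lost without UB replicate 1 or 3 or WD+IM replicate 2 (adjusted p = 0.0812 to 0.0944), under quantile normalization (adjusted p = 0.129) and under median centring (adjusted p = 0.188). Averaging Sox6 with its dim, untested probe set ended both calls, at -0.49 (adjusted p = 0.293) and -0.65 (adjusted p = 0.183). WD+IM against WD differed by -0.73 ± 0.24 and was not called (adjusted p = 0.069).

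Sox13 was higher in UB than in WD+IM, at 8915, 8546 and 6675 units against 4339, 4442 and 4963, by 0.80 ± 0.19 (adjusted p = 0.00765, and 0.154 with the spike term). WD read 6440, 4212 and 6619 units, all below the lowest UB array, and was not called against UB (adjusted p = 0.064). Sox4 and Sox11, related factors of embryonic progenitors with roles in kidney development, were not called. Sox4 read 37224 to 44253 units in UB, 44587 to 52687 in WD and 47035 to 50398 in WD+IM, and Sox11 2577 to 6413 units over the 9 arrays. Of the 5 other tested Sox4 probe sets, 2 were called lower in UB than in WD+IM, by -0.45 and -0.63, and 1 of these higher in WD+IM than in WD, by 0.84 (adjusted p = 0.0101). Sox15 was not called, and Sox1, Sox2, Sox3, Sox10, Sox12 and Sox21, mostly neural or neural crest factors, did not pass the filter.

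Both tested T-box genes, Tbx2 and Tbx3, which act as repressors in limb, heart and mammary development, were called in no comparison at any probe set. Tbx3 read 7852, 8618 and 6923 units in UB, 11360, 8416 and 9568 in WD and 6515, 8935 and 9691 in WD+IM. The 3 tissues overlapped, and UB against WD differed by -0.32 ± 0.17 (adjusted p = 0.18). Tbx2 read 1573 to 4855 units. Tbx4 and Tbx5, next to Tbx2 and Tbx3 in the GRCr8 annotation with no protein-coding gene between, did not pass the filter, nor did Tbx19.

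Forkhead genes differed between the tissues in several ways. Of 18 tested, 2 were higher and 6 lower in UB than in WD, 4 higher and 1 lower in WD+IM than in WD, and 1 higher and 8 lower in UB than in WD+IM. As shares these were 11.1% and 33.3%, 22.2% and 5.56%, and 5.56% and 44.4%, against the backgrounds over all genes of 13.4% and 19.6%, 6.47% and 8.24%, and 13.6% and 16.6%. The share higher in UB against WD and the share lower in WD+IM against WD lay near their backgrounds. Foxd2, expressed in kidney and facial mesenchyme, read 656, 384 and 573 units in UB, 1565, 1583 and 2304 in WD and 4555, 4888 and 4781 in WD+IM. It rose from UB to WD to WD+IM with no overlap. The difference was -1.68 ± 0.23 in UB against WD (adjusted p = 2.61e-04, and 0.0547 with the spike term), 1.38 ± 0.23 in WD+IM against WD (adjusted p = 0.0019) and -3.07 ± 0.23 in UB against WD+IM (adjusted p = 1.03e-06). The beta-actin covariate ended the call in WD+IM against WD (adjusted p = 0.117).

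Foxe3, a lens factor whose gene adjoins Foxd2 in the GRCr8 annotation with no protein-coding gene between, was also high in WD+IM. It read 86, 63.4 and 178 units in UB, 22.5, 227 and 388 in WD and 1354, 1056 and 623 in WD+IM. UB and WD overlapped, and WD+IM lay above both. Like Twist2, Foxe3 could pass the filter through its WD+IM arrays alone. It was higher in WD+IM than in WD by 2.33 ± 0.65 (adjusted p = 0.0361) and lower in UB than in WD+IM by -2.77 ± 0.65 (adjusted p = 0.0077, and 0.185 with the spike term). The first call was lost without any 1 of 6 arrays, UB replicate 1, WD replicate 1 or 2 and any WD+IM array (adjusted p = 0.0513 to 0.105). The beta-actin covariate took it to 0.36 (adjusted p = 0.82).

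Foxc1, a mesodermal factor of eye, vessel and kidney development, read 670, 373 and 262 units in UB, 248, 626 and 703 in WD and 1497, 1520 and 1527 in WD+IM. The WD+IM arrays were close together and above all others. It was higher in WD+IM than in WD by 1.56 ± 0.40 (adjusted p = 0.0231, and 0.0603 with the spike term) and lower in UB than in WD+IM by -1.79 ± 0.40 (adjusted p = 0.00553, and 0.0784 with the spike term). The first call was lost without WD replicate 1 or any WD+IM array (adjusted p = 0.0506 to 0.0714).

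Foxc2, which overlaps Foxc1 in function, depended on the probe set. The one with the highest mean read 335, 290 and 262 units in UB, 586, 425 and 943 in WD and 37.9, 820 and 136 in WD+IM, and was not called. The other tested one read 177, 86.2 and 311 in UB, 137, 282 and 122 in WD and 1350, 975 and 485 in WD+IM. It was higher in WD+IM than in WD by 2.08 ± 0.52 (adjusted p = 0.0215) and lower in UB than in WD+IM by -2.06 ± 0.52 (adjusted p = 0.0119). This probe set, too, could pass the filter through its WD+IM arrays alone. A further probe set, below the filter, read 795, 476 and 151 units in WD+IM and 80.6, 48.9 and 76.1 in WD. With all 3 averaged, UB against WD+IM stood at -1.13 (adjusted p = 0.0439). The WD+IM arrays of the first probe set ranged more widely than its other 6 arrays together.

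Foxp1 and Foxp2, repressors active in lung, heart and neural development, were both lower in UB than in WD+IM. Foxp1, with 5 tested probe sets, read 4912, 3768 and 5125 units in UB, 8938, 5545 and 6032 in WD and 12028, 7536 and 11837 in WD+IM. It was lower in UB than in WD+IM by -1.16 ± 0.22 (adjusted p = 0.00222, and 0.0164 with the spike term). UB against WD differed by -0.55 ± 0.22 and was not called at this probe set (adjusted p = 0.084), but the other 4 were called lower there, by -0.64 to -2.19. WD+IM against WD differed by 0.61 ± 0.22, which was not called (adjusted p = 0.0977), and the arrays of these tissues overlapped. Of the other 4 probe sets, 2 were called higher in WD+IM than in WD, by 0.63 and 0.42, and 1 read lower without a call, by -0.81. Foxp2 read 973, 702 and 794 units in UB, 622, 319 and 467 in WD and 3229, 967 and 2452 in WD+IM. It was higher in WD+IM than in WD by 2.02 ± 0.40 (adjusted p = 0.00531) and lower in UB than in WD+IM by -1.23 ± 0.40 (adjusted p = 0.0383, and 0.123 with the spike term), where WD+IM replicate 2 fell below UB replicate 1. The second call was lost without any 1 of the 3 UB arrays or WD+IM replicate 1 or 3 (adjusted p = 0.0674 to 0.152), under quantile normalization (adjusted p = 0.101) and under median centring (adjusted p = 0.0818).

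Foxq1, an epithelial factor, was the forkhead gene lower with mesoderm. It read 1124, 976 and 1180 units in UB, 1028, 1106 and 902 in WD and 356, 686 and 313 in WD+IM. WD+IM lay below all other arrays, while UB and WD overlapped. It was lower in WD+IM than in WD by -1.16 ± 0.30 (adjusted p = 0.0231, and 0.0825 with the spike term) and higher in UB than in WD+IM by 1.26 ± 0.30 (adjusted p = 0.00727, and 0.0182 with the spike term), and its other probe set made the same calls. The first call was lost without WD replicate 1 or 2 or WD+IM replicate 1 or 3 (adjusted p = 0.0591 to 0.0778). Foxc1, its neighbour in the GRCr8 annotation with Foxf2 alone between, differed in the opposite direction in the same 2 comparisons.

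Foxj1, the regulator of motile cilia, read 362, 347 and 139 units in UB, 810, 631 and 724 in WD and 672, 647 and 634 in WD+IM. UB lay below the other 6 arrays. It was lower in UB by -1.30 ± 0.35 against WD (adjusted p = 0.0169, and 0.348 with the spike term) and by -1.17 ± 0.35 against WD+IM (adjusted p = 0.0296, and 0.219 with the spike term). Both calls were lost without UB replicate 3, the first also without WD replicate 1 and the second without any WD+IM array (adjusted p = 0.0548 to 0.0606 and 0.0556 to 0.106). Quantile normalization (adjusted p = 0.196 and 0.225) and median centring (adjusted p = 0.0934 and 0.118) ended both.

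FoxO factors, which respond to insulin and growth factor signalling, were lower in UB in part. Foxo1 read 1156, 1151 and 1029 units in UB, 2075, 1664 and 1975 in WD and 1760, 1756 and 1268 in WD+IM. It was lower in UB than in WD by -0.75 ± 0.20 (adjusted p = 0.0159, and 0.697 with the spike term), a call lost without UB replicate 3 or WD replicate 1 (adjusted p = 0.0541 to 0.0563). Foxo3 was lower in UB by -0.57 ± 0.14 against WD (adjusted p = 0.00931, and 0.19 with the spike term) and by -0.41 ± 0.14 against WD+IM (adjusted p = 0.0463, and 0.178 with the spike term). Foxo3's second call was lost without any UB array, WD replicate 3 or WD+IM replicate 2 or 3 (adjusted p = 0.0507 to 0.152). Foxo4 was not called. Median centring ended the Foxo1 call (adjusted p = 0.339) and both Foxo3 calls (adjusted p = 0.736 and 0.898), and quantile normalization ended that of Foxo1 (adjusted p = 0.0761).

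Of 15 genes that FoxO factors are known to induce, 1 was higher and 4 lower in UB than in WD (all genes: 13.4% and 19.6%). Txnip, an inhibitor of thioredoxin, was lower by -1.22 ± 0.21 (adjusted p = 0.00118), and the repressor Bcl6 by -1.37 ± 0.36 (adjusted p = 0.0145). Pdk4, an inhibitor of pyruvate entry into mitochondria, was lower by -1.32 ± 0.45 (adjusted p = 0.0441), and the antioxidant enzyme gene Sod2 was higher by 0.46 ± 0.14 (adjusted p = 0.0283). In WD+IM against WD 1 was higher and 4 were lower (all genes: 6.47% and 8.24%), and in UB against WD+IM 3 were higher and 3 lower (all genes: 13.6% and 16.6%). Their medians were -0.04, -0.20 and 0.16.

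The remaining forkhead calls were small. Foxm1, a factor of mitotic gene expression, was higher in UB, at 2089, 2297 and 3148 units against 1662, 1418 and 1245 in WD and 2888, 1988 and 1865 in WD+IM. Its difference against WD was 0.77 ± 0.23 (adjusted p = 0.0239, and 0.167 with the spike term), and the call was lost without UB replicate 3 or WD replicate 2 or 3 (adjusted p = 0.057 to 0.104). Foxk2 was higher in UB by 0.62 ± 0.15 (adjusted p = 0.0089, and 0.425 with the spike term), and all 3 of its tested probe sets were called higher. With its dim, untested probe set averaged in, the difference was 0.17 and the call was lost (adjusted p = 0.556). Foxn3, a repressor linked to the cell cycle, was lower in UB by -0.58 ± 0.15 against WD (adjusted p = 0.0138, and 0.222 with the spike term) and by -0.45 ± 0.15 against WD+IM (adjusted p = 0.0467, and 0.18 with the spike term). Foxj2 was lower by -0.58 ± 0.20 against WD (adjusted p = 0.0457, and 0.148 with the spike term). Foxn3's first call was lost without UB replicate 1 or 3 (adjusted p = 0.0542 to 0.0565) and its second without any UB or WD+IM array or WD replicate 1 (adjusted p = 0.056 to 0.147). That of Foxj2 was lost without UB replicate 1 or 3, any WD array or WD+IM replicate 2 (adjusted p = 0.0506 to 0.158). Median centring ended the calls of Foxn3 (adjusted p = 0.711 and 0.80) and Foxj2 (adjusted p = 0.743), and quantile normalization that of Foxj2 (adjusted p = 0.0675).

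The forkhead genes that did not pass the filter included the endoderm factors Foxa1, Foxa2 and Foxa3. Foxa1 read 10.1 to 346 units and Foxa2 4.69 to 231. Foxd3, Foxd4, Foxe1, Foxf1, Foxi1, Foxi2, Foxk1, Foxr1 and Foxs1 were the others. Over all 28 untested members the single-array signals ran from 2.13 to 1836 units with a median of 110.

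Tcf19, Tcf20 and Tcf25 belong to none of these families. Tcf19, a gene of late G1 phase, read 4469, 4516 and 4050 units in UB, 3252, 2796 and 2482 in WD and 3974, 4736 and 6004 in WD+IM. WD lay below the other 6 arrays. It was higher than in WD by 0.61 ± 0.18 in UB (adjusted p = 0.0224, and 0.831 with the spike term) and by 0.77 ± 0.18 in WD+IM (adjusted p = 0.0139, and 0.0529 with the spike term). The first was lost without UB replicate 1 or 2 or WD replicate 2 or 3 (adjusted p = 0.0515 to 0.0784), the second without WD+IM replicate 3 (adjusted p = 0.0553). Tcf25 was lower in UB by -0.44 ± 0.12 against WD (adjusted p = 0.014, and 0.47 with the spike term) and by -0.61 ± 0.12 against WD+IM (adjusted p = 0.00179, and 0.0623 with the spike term). Without UB replicate 1 the first had an adjusted p of 0.0607, and its direction turned under median centring, to 0.02. Median centring also ended the second (adjusted p = 0.322). Neither of Tcf25's other tested probe sets was called. They differed by -0.83 and 0.33 in UB against WD and by -0.93 and -0.42 in UB against WD+IM. Tcf20 was not called.

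Read over the 3 tissues at once, 4 members, Foxd2, Tcf4, Tcf7l1 and Twist1, were lowest in UB and highest in WD+IM with no overlap at either step. That is 8.51% of the 47, against 4.93% of all genes tested. Id4 and Tcf7 took the reverse order, 4.26% against 2.22%. Hand2, Id2, Sox6 and Tcf7l2 were highest in WD, then WD+IM, then UB, 8.51% against 2.14%. None of the 4 was called between WD and WD+IM at the probe set read for the gene. Id2's other probe set was called higher in WD+IM than in WD, and at Hand2's other one these tissues overlapped. Another Tcf7l2 probe set was called lower in WD+IM than in WD, by -1.34 (adjusted p = 0.0483). Foxk2 was highest in UB and lowest in WD, 2.13% against 2.14%. Of the genes named here with other tested probe sets, Twist1 alone kept its order without overlap at them. No member took either of the remaining orders without overlap, WD above UB above WD+IM or WD+IM above UB above WD.

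Across the promoters of the 55 members that RefSeq's GRCr8 table holds, the letters of sites that these families bind were counted on their own and beside all promoters. An E-box CANNTG stood in 54.5% of them, against 65.2% of 27457 promoters, both strands searched over 250 bases, and its form CACCTG in 14.5% against 15.6%. The forkhead letters TGTTTAC stood in 1.82% against 3.25%, and the T-box letters AGGTGTG in 5.45% against 4.63%. The GATA letters AGATAA were found in 1.82% against 10%. No member held the Sox letters ACAATGG, present in 3.15% of promoters, or the TCF/LEF letters CTTTGAA, present in 4.63%. Among named genes, Foxp1 held the forkhead letters and Hand2 the GATA letters, once each. The members' promoters had a median of 62.8% G and C and 16 CpG dinucleotides, against 52% and 6 over all promoters, so these shares are set beside promoters of another base composition.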

How the data were processed

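Intensities of 31099 probe sets on 9 arrays were used as deposited by the authors. GCOS, the array maker's software, is named per the submitters' processing notes. Its version was not given in the sources used here, nor was its summary algorithm, and the values show that all arrays share a mean of 2500.7 to 2500.8 units after 2% is trimmed at each end. Gene names came from the platform's annotation (20826 with 1 symbol, 436 with several, 9780 with none, 57 controls); all 75 members carry the same symbol in GRCr8.

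A pseudocount of 46, the 10th percentile of all values, was added before log2. Probe sets above the 40th percentile on at least 3 of 9 arrays were tested (20330). The fit used limma 3.58.1 in R 4.3.3 with a mean-variance trend over all 9 arrays, 6 residual degrees of freedom, and Benjamini-Hochberg adjustment over all probe sets tested within a comparison. It was tested on simulated data. Where a gene had several probe sets, the one with the highest mean over the arrays was read. Of the members' probe sets 89 were tested, and no gene had opposite calls.

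The members and all gene lists were chosen with earlier results of these data known. Full values are given for the 24 called members with the largest differences without overlap and for a list of named genes, and from each other list for at most 4 called genes a comparison. Those other lists were tested in this fit alone. The alternatives were scaling, pseudocount, filter, variance model, probe set averaging, array weights, a replicate block, a spike ratio term, a beta-actin covariate, a fold minimum and leaving out each array. The number of arrays limits the precision.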

Additional observations from a re-analysis of the deposited data

How the results depend on the processing

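Of 63 member calls, 15 held under every alternative run for them and 38 were lost with the spike ratio term, and of 78 differences not called, 25 were called under some alternative. For UB against WD the 24 called members became 2 with the spike ratio term, 14 with the beta-actin covariate, 8 at a minimum of 2-fold and 16 to 27 without 1 array. Their median became 0.00053 under median centring, from -0.46. Among all probe sets, 6073 calls became 798, 3276 and 3004 under the first 3 of these and 3743 to 6488 without 1 array. For WD+IM against WD the 13 called members became 3 with the beta-actin covariate, 8 at 2-fold and 7 to 13 without 1 array, and the median of -0.05 became 0.17 with all probe sets of a gene averaged and 0.12 with the covariate. The 2578 probe sets became 826 with the covariate and 1465 at 2-fold. For UB against WD+IM the 26 members became 16 under median centring, 14 with the spike ratio term and 16 at 2-fold, the median became -0.12 under median centring, and the 5176 probe sets became 2414 with the spike ratio term and 2980 at 2-fold. Signs turned in UB against WD under median centring for Id3 (0.0592), Tcf12 (0.0652) and Tcf25 (0.0189) and under averaging for Tcf12 (0.0012), and in UB against WD+IM under averaging for Foxc2 (-1.13, adjusted p = 0.0439). The cause of these changes was not tested. Weak members are limited by their signal over background.

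The labels state no pairing by replicate number. Deviations of same-numbered arrays correlated at -0.35 to 0.28. Arrays of different numbers were not compared, so these values cannot settle whether the numbers pair the arrays. With the number as a replicate block, 23, 12 and 23 members were called in the 3 comparisons, with 2, 2 and 3 calls lost, and the probe sets called were 5338, 2194 and 4606.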

Other observations

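Other bHLH genes, outside the symbol rule, were also measured. Of 26 tested, 2 were higher and 7 lower in UB than in WD (all genes: 13.4% and 19.6%). Hes6, a neurogenic and progenitor factor, was higher by 0.97 ± 0.15 (limma, adjusted p = 5.96e-04), while Epas1, a hypoxia-inducible factor prominent in endothelium, was lower by -1.82 ± 0.28 (adjusted p = 6.58e-04) and Hey1, a Notch target, by -1.53 ± 0.33 (adjusted p = 0.00542). In WD+IM against WD 3 were higher and 2 lower (all genes: 6.47% and 8.24%). Epas1 was higher by 2.25 ± 0.28 (adjusted p = 3.31e-04), Hey1 by 2.05 ± 0.33 (adjusted p = 0.00169) and the blood and vessel factor Lyl1 by 1.99 ± 0.48 (adjusted p = 0.0181). Mitf was lower by -0.98 ± 0.17 (adjusted p = 0.00228). In UB against WD+IM 5 were higher and 7 lower (all genes: 13.6% and 16.6%). Endothelial markers summed to 46435 to 48114 units on WD+IM arrays and to 4337 to 7364 on the others, and their part in the Epas1, Hey1 and Lyl1 differences was not tested.

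Sox9 itself could not be read, but 6 genes it is known to activate in cartilage were tested, and they did not move together. Between UB and WD, 2 were higher and 3 lower (all genes: 13.4% and 19.6%). Col9a1 was higher by 4.72 ± 0.29 (adjusted p = 5.05e-07) and Col9a3 by 2.03 ± 0.27 (adjusted p = 1.98e-04). Among the 3, Col11a1 was lower by -2.86 ± 0.19 (adjusted p = 8.08e-07) and Hapln1 by -1.21 ± 0.27 (adjusted p = 0.00622). In WD+IM against WD, Col9a1 was the 1 called, higher by 1.87 ± 0.29 (adjusted p = 0.00133), where 6.47% of all genes were higher and 8.24% lower. In UB against WD+IM 3 were higher and 3 lower (all genes: 13.6% and 16.6%).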
